A study of Zea mays with 6 samples.

Results

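The 8 maize (Zea mays) genes described here encode enzymes of flavonoid and anthocyanin synthesis, and their transcripts were followed in leaves of a ZmGA20ox3 knockout line and of wild type. The genes were chosen by identifier as known steps of the pathway, with earlier results of these data known, and all 8 were found among the 44320 genes of the deposited table. They are the chalcone synthases c2 (Zm00001d052673) and whp1 (Zm00001d007403), the chalcone isomerase chi1 (Zm00001d034635), the flavanone 3-hydroxylase fht1 (Zm00001d001960), the flavonoid 3′-hydroxylase pr1 (Zm00001d017077), the dihydroflavonol reductase a1 (Zm00001d044122), the anthocyanidin synthase a2 (Zm00001d014914) and the anthocyanidin glucosyltransferase bz1 (Zm00001d045055). The pairing of identifier and gene name came with the gene list. Neither the deposited table nor the RefSeq gene table pairs them, so it could not be checked here.

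The KO1 group holds 3 leaf libraries labelled as a knockout of ZmGA20ox3, a gibberellin 20-oxidase gene. The WT group holds 3 leaf libraries of wild type. Both genotypes are labelled as cultivar KN5585, were grown under normal conditions and were sampled at the V8 vegetative stage. The wild-type line is spelled KN5855 in the growth protocol, and the labels do not settle whether the genotypes share a background. KO1 stands for 1 edited line, and the labels give no plant age in days, leaf position or hour of harvest. RNA sequencing gave 1 TPM value per gene and library, a length-scaled share of that library's transcripts. TPM holds no depth, so no counting error can be given, and a value can be set beside that of another gene in the same library. Defining markers of leaf cell types and the level of ZmGA20ox3 itself were not analysed here, because their identifiers are not paired with names.

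Flavonoid synthesis starts with chalcone synthase, which joins a phenylpropanoid unit to malonyl units, and chalcone isomerase then closes the ring to give a flavanone. Flavanone 3-hydroxylase leads on to dihydroflavonols, and the flavonoid 3′-hydroxylase adds a hydroxyl group to the B ring, which sets whether the products are of the cyanidin or the pelargonidin kind. Dihydroflavonol reductase, anthocyanidin synthase and the glucosyltransferase complete the red and purple anthocyanins, while flavones and flavonols branch off earlier. In maize these genes are known from kernel and plant colour, where MYB and bHLH proteins of the c1 or pl1 and r1 or b1 families switch them on together.

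Of the 8 genes, pr1 fell and bz1 rose in KO1 leaves, and the other 6 did not pass the test. The test was limma on log2(TPM + 1) over all 20990 genes with at least 1 TPM in at least 3 libraries, at a Benjamini-Hochberg adjusted p under 0.05. By the same rule 15.7% of all tested genes passed, 9.87% as higher and 5.86% as lower in KO1, so 1 of 8 in each direction is not far from the background. Of these calls 62.7% were higher in KO1, and 48.8% after quantile normalization. All 8 genes were tested, but bz1 entered the test only through its KO1 libraries, since each WT library held it under 1 TPM. The differences ran both ways, with 4 genes positive and 4 negative. Their median was 0.06 on the log2(TPM + 1) scale, beside 0.05 over all tested genes. At an unadjusted limma p under 0.05 there were 5 of the 8 genes, against 34.3% of all tested genes.

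**Figure D1:**
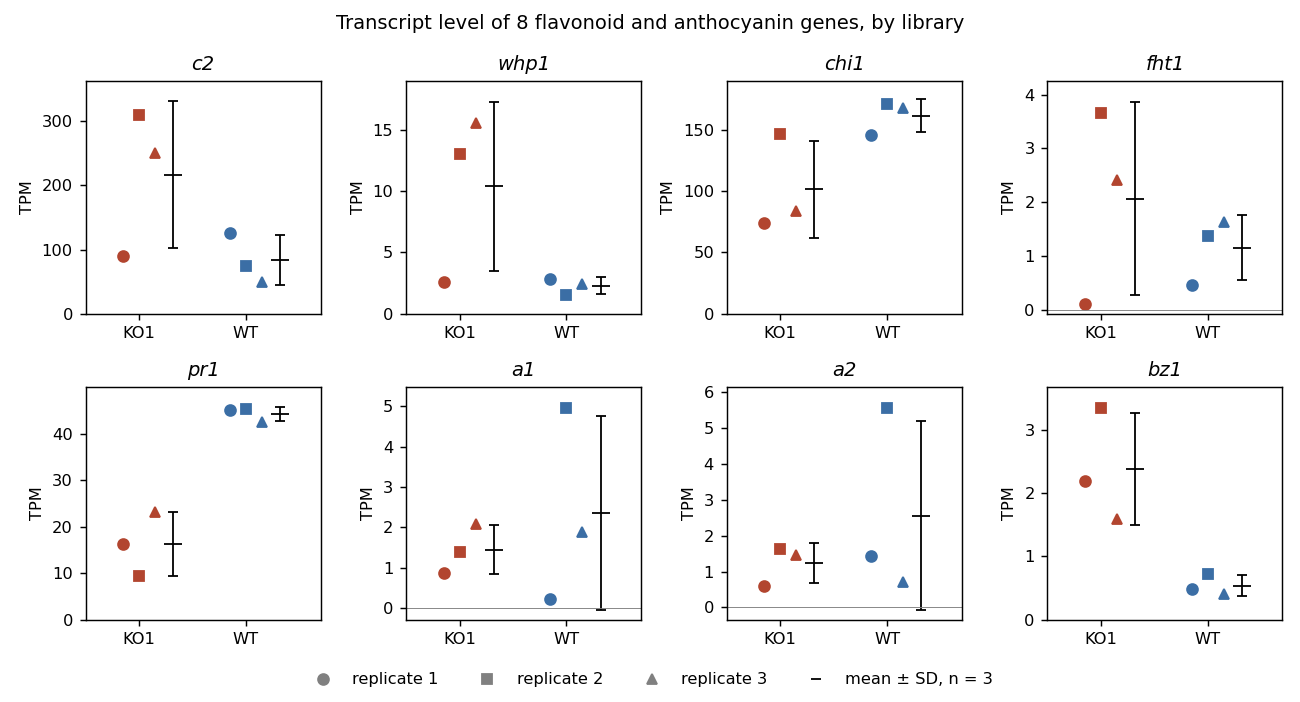
Transcript level in TPM (linear axis) of each of the 8 genes in the 3 KO1 and 3 WT libraries, with the mean and SD of each group beside the points. The groups are apart for pr1, at 9.44 to 23.1 TPM in KO1 and 42.4 to 45.2 TPM in WT, and for bz1, at 1.60 to 3.35 TPM in KO1 and 0.40 to 0.73 TPM in WT.

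The c2 gene, the chalcone synthase known from kernel colour, reached 89.6, 310.3 and 251 TPM in the 3 KO1 libraries, taken in the order of their replicate numbers, against 126, 73.9 and 50.1 TPM in the 3 of WT. KO1 replicates 2 and 3 lay above every WT library, and KO1 replicate 1 lay inside the WT range. The means were 217 ± 114 TPM in KO1 and 83.5 ± 39.1 TPM in WT (SD, n = 3 each), a ratio of 2.60. The difference was 1.29 on the log2(TPM + 1) scale (SE 0.54, 95% interval 0.01 to 2.57) and did not pass (limma adjusted p = 0.143). The interval is that of a single gene, not adjusted for the number of genes tested.

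The second chalcone synthase, whp1, known for white pollen when lost together with c2, followed a like arrangement at a far lower level. It stood at 2.55, 13.0 and 15.6 TPM in KO1 libraries 1, 2 and 3, against 2.85, 1.52 and 2.43 TPM in WT libraries 1, 2 and 3. Again KO1 replicates 2 and 3 stood above all WT libraries and KO1 replicate 1 did not. Its ratio of means was 4.57, and its difference of 1.54 (SE 0.59, 95% interval 0.14 to 2.95) did not pass (limma adjusted p = 0.118). Without KO1 replicate 1, the KO1 library that overlapped WT, the difference was 2.24 and passed (limma adjusted p = 0.0153). No other single omission made whp1 pass, at limma adjusted p-values of 0.192 to 0.267. For c2, leaving out KO1 replicate 1 gave 1.83 with a limma adjusted p of 0.057, which still missed the threshold. Its other single omissions gave limma adjusted p-values of 0.136 to 0.359.

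Most chalcone synthase transcript came from c2 in every library. The share of whp1 in the sum of both was 2.77%, 4.02% and 5.84% in KO1 and 2.20%, 2.02% and 4.63% in WT. The groups overlapped, with 4.21% ± 1.54 in KO1 and 2.95% ± 1.46 in WT (SD, n = 3 each; exact two-sided permutation p = 0.4, in a design whose smallest p is 0.1). The copies are duplicate genes of similar sequence, and the labels do not say how reads that match both were divided, so an exchange of reads between them was not tested.

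The chi1 gene, whose enzyme acts directly after chalcone synthase, was lower on average in KO1, in the direction opposite to c2 and whp1. It measured 74.0, 147 and 84.0 TPM in KO1 libraries 1, 2 and 3, against 146, 171 and 168 TPM in WT libraries 1, 2 and 3. KO1 replicates 1 and 3 lay below every WT library, while KO1 replicate 2 sat just above WT replicate 1. The means were 102 ± 39.5 TPM in KO1 and 162 ± 13.6 TPM in WT (SD, n = 3 each). The difference of -0.73 (SE 0.27, 95% interval -1.38 to -0.08) did not pass (limma adjusted p = 0.113). Without KO1 replicate 2, the KO1 library that overlapped WT, the difference was -1.02 and passed (limma adjusted p = 0.0237). No other single omission made chi1 pass, at limma adjusted p-values of 0.181 to 0.269.

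The fht1 gene, whose enzyme hydroxylates the flavanone on the way to dihydroflavonols, had a low mean level, with 6.72% of the tested genes at or below it. It stood at 0.12, 3.66 and 2.42 TPM in KO1 libraries 1, 2 and 3, against 0.47, 1.38 and 1.63 TPM in WT libraries 1, 2 and 3. KO1 held both the lowest and the highest value, with a 30.5-fold span among its 3 libraries against 3.47-fold in WT. No genotype difference could be read at this spread, at 0.32 on the log2(TPM + 1) scale (SE 0.56, 95% interval -1.01 to 1.65; limma adjusted p = 0.719). Its sign turned without KO1 replicate 2, at -0.10.

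Transcript of pr1, the hydroxylase that directs flavonoids to the cyanidin side, fell in KO1. It measured 16.2, 9.44 and 23.1 TPM in KO1 libraries 1, 2 and 3, against 45.0, 45.2 and 42.4 TPM in WT libraries 1, 2 and 3. All 3 KO1 libraries lay below all 3 WT libraries, and the WT values were nearly equal, with a coefficient of variation of 42.0% in KO1 and 3.53% in WT. The means were 16.2 ± 6.82 TPM in KO1 and 44.2 ± 1.56 TPM in WT (SD, n = 3 each), so WT held 2.72-fold more. The difference was -1.47 (SE 0.30, 95% interval -2.19 to -0.75; limma adjusted p = 0.0253), and 10.4% of all tested genes differed by more in either direction.

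With each single library left out in turn, the difference of pr1 ran from -1.75 to -1.15, and its call did not always hold. The limma adjusted p was 0.0683 without KO1 replicate 1, 0.0745 without WT replicate 1 and 0.0902 without WT replicate 3, at differences between -1.51 and -1.46. In these omissions, in the same order, 7.06%, 6.26% and 3.71% of all tested genes passed, against 15.7% with all libraries. In bulk leaf samples, fewer cells that hold a transcript and less of it per cell cannot be told apart, for pr1 as for the other 7 genes.

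The a1 gene, encoding the reductase that makes leucoanthocyanidins, stood at 0.87, 1.39 and 2.08 TPM in KO1 libraries 1, 2 and 3, against 0.23, 4.96 and 1.88 TPM in WT libraries 1, 2 and 3. The KO1 values lay inside the WT range. The a2 gene, encoding the anthocyanidin synthase of the next step, measured 0.60, 1.63 and 1.47 TPM in KO1 libraries 1, 2 and 3, against 1.42, 5.57 and 0.70 TPM in WT libraries 1, 2 and 3. For both genes WT replicate 2 was the highest of all 6 libraries, while WT replicate 1 was the lowest of all 6 for a1.

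Neither late gene differed beyond this spread. The difference of a1 was -0.21 (SE 0.57, 95% interval -1.56 to 1.15; limma adjusted p = 0.825) and that of a2 was -0.46 (SE 0.52, 95% interval -1.70 to 0.78; limma adjusted p = 0.568). Without WT replicate 2 the signs turned, to 0.35 for a1 and 0.11 for a2, so the lower KO1 means of both rest on that library. Without WT replicate 1 the difference of a1 was -0.79. The interval of a1 reaches past 1 on this log2 scale in both directions.

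The bz1 gene, whose glucosyltransferase stabilises anthocyanidins at the end of the chain, rose in KO1 and was low in both genotypes. It stood at 2.19, 3.35 and 1.60 TPM in KO1 libraries 1, 2 and 3, against 0.49, 0.73 and 0.40 TPM in WT libraries 1, 2 and 3. All 3 KO1 libraries lay above all 3 WT libraries. The means were 2.38 ± 0.89 TPM in KO1 and 0.54 ± 0.17 TPM in WT (SD, n = 3 each), a ratio of 4.41. The difference was 1.11 on the log2(TPM + 1) scale (SE 0.26, 95% interval 0.49 to 1.73; limma adjusted p = 0.0362). Changes of genes this low come out smaller on that scale than in TPM. The gene passed the filter only through its KO1 libraries, where it is high, so its call is not free of that choice. With all genes above 0 TPM in at least 1 library tested, the limma adjusted p of bz1 was 0.0471.

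The call for bz1 was the less stable of the pair. After quantile normalization its difference was 0.83 with a limma adjusted p of 0.0776, and with each single library left out in turn it passed only without KO1 replicate 3 (limma adjusted p = 0.0451). The other omissions gave limma adjusted p-values of 0.0857 without KO1 replicate 1, 0.0707 without KO1 replicate 2, 0.0955 without WT replicate 1, 0.0552 without WT replicate 2 and 0.128 without WT replicate 3. Fewer of all tested genes passed in every omission, from 3.71% without WT replicate 3 to 14% without WT replicate 2, against 15.7% with all libraries. Groups that do not overlap were found for pr1 and bz1 alone among the 8 genes, 1 in each direction. Of all tested genes 40.5% had groups apart, 22.9% with KO1 higher and 17.6% with KO1 lower.

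**Figure D2:**
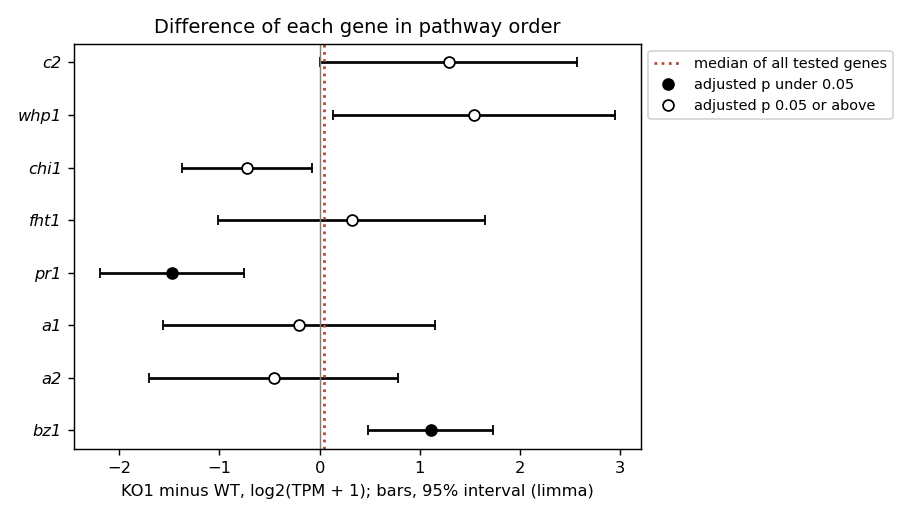
Difference of each gene, KO1 minus WT, on the log2(TPM + 1) scale, with limma 95% intervals not adjusted for multiple testing. Filled points passed the adjusted threshold: pr1 at -1.47 and bz1 at 1.11. The dotted line is the median of all tested genes, 0.05.

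**Figure D3:**
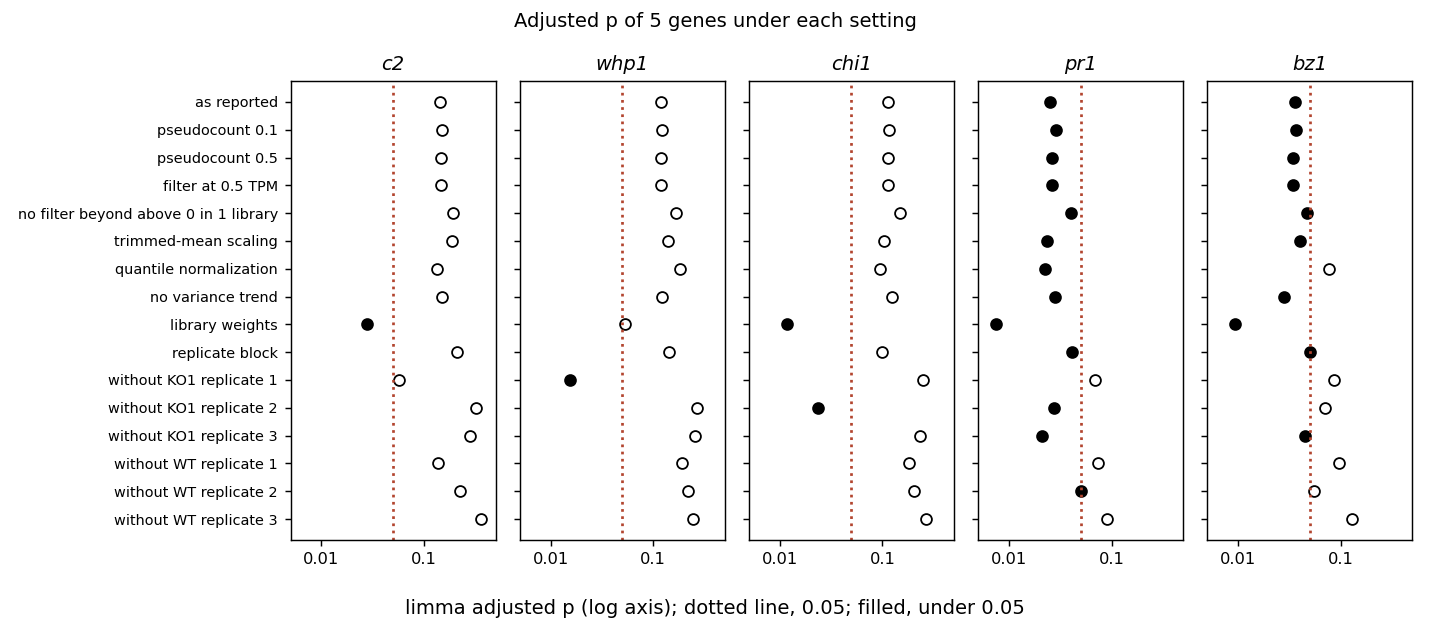
Adjusted p (log axis) of the 5 genes with an unadjusted p under 0.05, as reported and under each of the 15 other settings. The points of pr1 and bz1 cross the dotted line at 0.05 when single libraries are left out, and c2, whp1 and chi1 lie above it in most settings.

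In every library c2 and chi1 were the highest of the 8 genes, though c2 was close to pr1 in WT replicate 3, at 50.1 and 42.4 TPM. Together these 2 genes made up 89.7% ± 3.16 of the TPM of the 8 genes in KO1 and 82.1% ± 2.02 in WT (SD, n = 3 each). The mean share of pr1 in the same sum was 5.56% in KO1 and 14.9% in WT. The joint share of c2 and chi1 is therefore no result separate from pr1, and it was not tested. The order of means in KO1 was c2, chi1, pr1, whp1, bz1, fht1, a1 and a2. Only chi1 and pr1 were neighbours without overlap there. In WT the order was chi1, c2, pr1, a2, a1, whp1, fht1 and bz1, and the first 3 of these were each apart from the next, while from a2 down all neighbours overlapped.

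The top of this order differed by genotype. Chalcone isomerase transcript was below that of c2 in every KO1 library and above it in every WT library. The ratio of c2 to chi1 was 1.21, 2.11 and 2.99 in KO1 and 0.86, 0.43 and 0.30 in WT. KO1 replicate 1, with c2 inside the WT range, still stood on the KO1 side of this ratio, with the lowest chi1 level of all 6. The ratio was chosen after its values were seen and is given without a test.

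The share of pr1 in the 8-gene sum was also apart, at 8.70%, 1.93% and 6.05% in KO1 and 13.9%, 14.8% and 15.9% in WT. This share is built on the pr1 values already given as apart, so it is no separate result, and it was not tested. The ratio of pr1 to chi1 overlapped, at 0.22, 0.06 and 0.27 in KO1 and 0.31, 0.26 and 0.25 in WT. Only KO1 replicate 3, where chi1 was also below every WT library, lay inside the WT range of this ratio. The summed TPM of the 8 genes overlapped, at 186, 490 and 381 TPM in KO1 and 323, 305 and 267 TPM in WT. These sums follow c2 and chi1 and say little of the low genes.

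**Figure D4:**
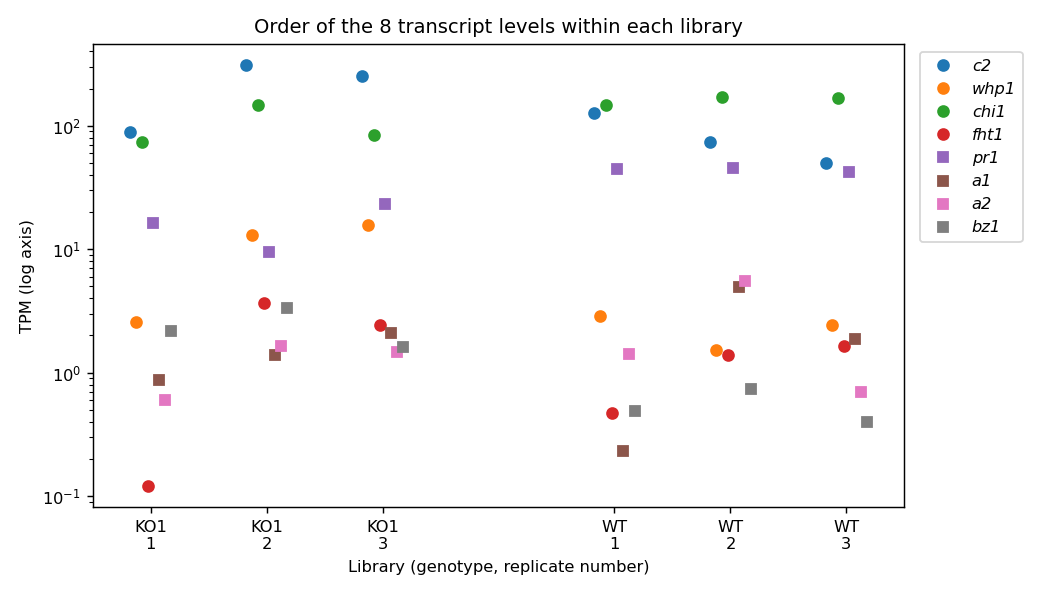
TPM (log axis) of the 8 genes in each library, KO1 at the left and WT at the right; circles mark c2, whp1, chi1 and fht1, and squares mark pr1, a1, a2 and bz1. Within each KO1 library the c2 point lies above that of chi1, though the levels of these genes overlap over the KO1 group. In WT the chi1 points, at 146 to 171 TPM, lie above all those of c2.

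Libraries of a genotype differed in many of the 8 genes at once. KO1 replicate 1 was the lowest KO1 library for 6 genes, the exceptions being pr1 and bz1, and KO1 replicate 2 was the highest for 5. Within WT, replicate 2 was the highest for 5 genes and replicate 3 the lowest for 4. With 3 libraries a group, such counts describe these samples only. The number of genes at 1 TPM or more, which was 20697 to 21115 in KO1 and 19282 to 20537 in WT, also separated the genotypes, and its part in the difference of low genes such as bz1 was not tested.

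As a description of likeness, each of the 15399 other tested genes with a mean of at least 5 TPM was set against the mean standardised profile of the 8 genes over the 6 libraries. The highest Pearson r was 0.95 for Zm00001d031275, with 17.2, 89.7 and 41.6 TPM in KO1 and 19.8, 63.2 and 26.4 TPM in WT. Next was Zm00001d009653, also at 0.95, with 105, 134 and 135 TPM in KO1 and 115, 125 and 116 TPM in WT. The deposited table names neither gene. Neither passed the test between genotypes (limma adjusted p = 0.765 and 0.814), and with 6 libraries and so many genes the r describes these samples only. Of the 8 genes, fht1 was most like the mean of the other 7, at r = 0.80, and pr1 least, at r = -0.43. The rest lay between -0.01 (bz1) and 0.46 (a2), so most of the 8 genes followed the others only loosely.

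Other genes of the pathway, among them bz2, a4, the regulators r1, b1, c1, pl1, p1 and pac1 and the flavone and flavonol synthases, had been listed by symbol. Of 16 symbols, 8 were in the RefSeq table, and 0 could be tied to an identifier of the deposited table. Their levels were not analysed here.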

How the data were processed

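The authors deposited 1 table of TPM values, rounded to 2 decimals, for 3 KO1 and 3 WT leaf libraries. Per the submitters' processing notes, the tools were RSEM, Bowtie2 and DESeq2, with no version or role; build and annotation are not given in the labels or the table. TPM fixes each library's total, so a rise of some transcripts lowers all others.

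Groups and replicate numbers came from the sample titles, and columns were matched to samples through the descriptions. The labels call the replicates biological. The comparison of KO1 with WT used limma 3.58.1 under R 4.3.3. Values of log2(TPM + 1) were fitted without covariates, with a trended variance prior and a two-sided test, over 20990 genes with at least 1 TPM in at least 3 libraries. The procedure was tested on simulated data in which only genes of higher WT level were changed. That run does not bear on genes as low as whp1, fht1, a1, a2 and bz1. The gene names of the 8 identifiers came with the list. The text names all 8, plus the 2 genes with the highest likeness among those with a mean of at least 5 TPM. The members and lists were chosen with earlier results of these data known. RefSeq (Zm-B73-REFERENCE-NAM-5.0, 49888 genes) matched 0 table identifiers and 7 of the 8 symbols. Plots used matplotlib 3.10.9.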

Additional observations from a re-analysis of the deposited data

How the results depend on the processing

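The count of 2 called flavonoid genes became 1 after quantile normalization (pr1) and 4 with library weights (c2, chi1, pr1 and bz1). Single-library omissions gave 0 where fewest genes passed, without WT replicate 1 (6.26% of all tested genes) and WT replicate 3 (3.71%). They gave 1 without KO1 replicate 1 (whp1, with 7.06% of all tested genes) or WT replicate 2 (pr1, with 14%). They gave 2 without KO1 replicate 2 (pr1 and chi1, with 8.84%) or KO1 replicate 3 (pr1 and bz1, with 10.7%). Over all genes the 3301 calls (15.7%) became 6838 (32.6%) with library weights, where WT replicate 3 had a weight of 8.53. Single omissions gave 778 to 2929 calls. Quantile normalization (16.2% called) moved the median difference of all tested genes to -0.09. No direction of the 8 genes turned under either scaling, either pseudocount, either filter, the fit without a trend or the block. The directions that turned were those of fht1, to -0.057 with library weights and -0.10 without KO1 replicate 2, of a2, to 0.17 with library weights and 0.11 without WT replicate 2, and of a1, to 0.35 without WT replicate 2. With single libraries left out, fht1 ran from -0.10 to 0.93, a1 from -0.79 to 0.35 and a2 from -0.87 to 0.11. With library weights c2 was at 1.72 and chi1 at -0.91. Non-overlapping flavonoid genes numbered 2 to 5 with single libraries left out, an alternative chosen after seeing the data: 5 without KO1 replicate 1 and 5 without WT replicate 1. Of all tested genes, 49.7% had groups apart without KO1 replicate 1 and 48.8% without WT replicate 1. Over all single omissions this share was 44.4% to 53.7%, against 40.5% with all libraries, so it rose for genes at large. The difference in the whp1 share was 1.26 percentage points, 1.91 from summed TPM and 0.44 to 2.10 with single libraries left out. With a replicate block, 2806 genes and the same pr1 and bz1 passed (limma adjusted p = 0.041 and 0.0498). Deviations from each gene's group mean correlated at -0.01, 0.09 and 0.02 for same-numbered libraries, inside -0.11 to 0.11 for others. With 3 libraries a group, this cannot decide whether the numbers mark pairs. The cause of these shifts was not tested. Depth is unknown, which limits what can be said of the 4 genes near 1 TPM.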
